A study of Homo sapiens with 4 samples.

Results

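The WNT genes described here are 49 genes of the WNT signalling pathway and its output: ligands, receptors, secreted antagonists, intracellular transducers, TCF/LEF transcription factors, negative feedback genes and target genes. They were selected by gene symbol from a list of 49 names, and all 49 had a row among the 57815 rows of the table. Of these, 47 were above 0 in at least 1 library, 43 reached 1 FPKM (fragments scaled to gene length and to library depth) in at least 1 library, and WIF1 and APCDD1 were listed at 0 in all 4 libraries. The libraries came from MKN1 and AGS, human gastric carcinoma cell lines. Cells of both lines received, by transfection with Lipofectamine 2000, a small interfering RNA against the homeobox gene HOXB9 (siHOXB9) or a scrambled control (siScramble), with 1 library of polyadenylated RNA per line and siRNA. The labels call the siHOXB9 cells HOXB9 knockdown and the siScramble cells WT. No library had a replicate within its line, so a difference between siHOXB9 and siScramble within a line has no replicate check, and the pair of lines is the only repeat of the knockdown. AGS is known to carry an activating mutation of CTNNB1, the gene of beta-catenin; this is background, and the files hold no sequence of the cells. In bulk RNA of a culture, fewer cells expressing a gene and less RNA per cell cannot be told apart.

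In canonical WNT signalling, secreted WNT proteins bind a Frizzled receptor and the coreceptor LRP5 or LRP6, which stops the destruction complex of APC, axin, GSK3 and casein kinase 1 from marking beta-catenin for degradation. Beta-catenin then enters the nucleus and, with TCF/LEF factors, switches on target genes, several of which (AXIN2, NKD1, RNF43, ZNRF3, NOTUM) feed back to damp the pathway. Other WNT proteins, such as WNT5A, signal mainly without beta-catenin. In the gut epithelium the canonical pathway maintains stem cells, and LGR5 marks stem cells of the intestine and of the stomach.

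The estimated depth was 10650000 fragments for MKN1 siHOXB9, 11510000 for MKN1 siScramble, 12470000 for AGS siHOXB9 and 13030000 for AGS siScramble, recovered from the steps of low FPKM values. HOXB9 itself stood at 0.218 FPKM in MKN1 siHOXB9 and 1.14 FPKM in MKN1 siScramble, and at 4.45 FPKM in AGS siHOXB9 and 16.4 FPKM in AGS siScramble. The MKN1 values correspond to an estimated 5.4 fragments in siHOXB9 and 30.4 in siScramble, so the knockdown in MKN1 rests on few fragments. Over both lines limma did not call HOXB9 (log2 change -1.25, SE 0.27, adjusted p = 0.355). Of 6 epithelial markers, 5 reached 1 FPKM in both MKN1 libraries and 6 in both AGS libraries. CDH1, E-cadherin, was the one under 1 FPKM in MKN1. Limma called 4 of the 6 lower in MKN1 (EPCAM, KRT19, CLDN4 and CDH1). EPCAM, an epithelial adhesion molecule, was at 2.70 and 2.14 FPKM in MKN1 siHOXB9 and siScramble, against 359 and 328 FPKM in AGS siHOXB9 and siScramble. KRT19, a keratin, was at 2.66 and 2.02 FPKM in MKN1 siHOXB9 and siScramble, against 1001 and 838 FPKM in AGS siHOXB9 and siScramble. The keratins KRT8 and KRT18 were between 654 and 1880 FPKM in all 4 libraries. The 6 epithelial markers summed to 2011 and 1772 FPKM in MKN1 siHOXB9 and siScramble, and to 4522 and 3848 FPKM in AGS siHOXB9 and siScramble. Of 7 gastric markers, 2 reached 1 FPKM in the MKN1 libraries and 3 in the AGS libraries. The defining mucin genes MUC5AC and MUC6, as well as TFF2 and GKN1, stayed under 1 FPKM in every library. TFF1, MUC1 and CLDN18 were called lower in MKN1. MUC1 was at 20.3 and 12.9 FPKM in MKN1 siHOXB9 and siScramble, against 87.8 and 86.0 FPKM in AGS siHOXB9 and siScramble. TFF1 was at 1.285 and 1.20 FPKM in MKN1 siHOXB9 and siScramble, against 14.85 and 26.15 FPKM in AGS siHOXB9 and siScramble. Vimentin (VIM), a mesenchymal filament, was at 461 and 429.5 FPKM in MKN1 siHOXB9 and siScramble, and at 2.12 and 1.97 FPKM in AGS siHOXB9 and siScramble. Limma called the mesenchymal markers VIM, CDH2 and FN1 higher in MKN1, and did not call COL1A1 and PDGFRB. COL1A1 was at 43.85 and 35.0 FPKM in MKN1 siHOXB9 and siScramble, and at 29.3 and 15.8 FPKM in AGS siHOXB9 and siScramble. The 5 listed mesenchymal markers summed to 544 and 521 FPKM in MKN1 siHOXB9 and siScramble, and to 33.0 and 18.4 FPKM in AGS siHOXB9 and siScramble, and the part of these markers in the differences between the lines was not tested.

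**Figure D1:**
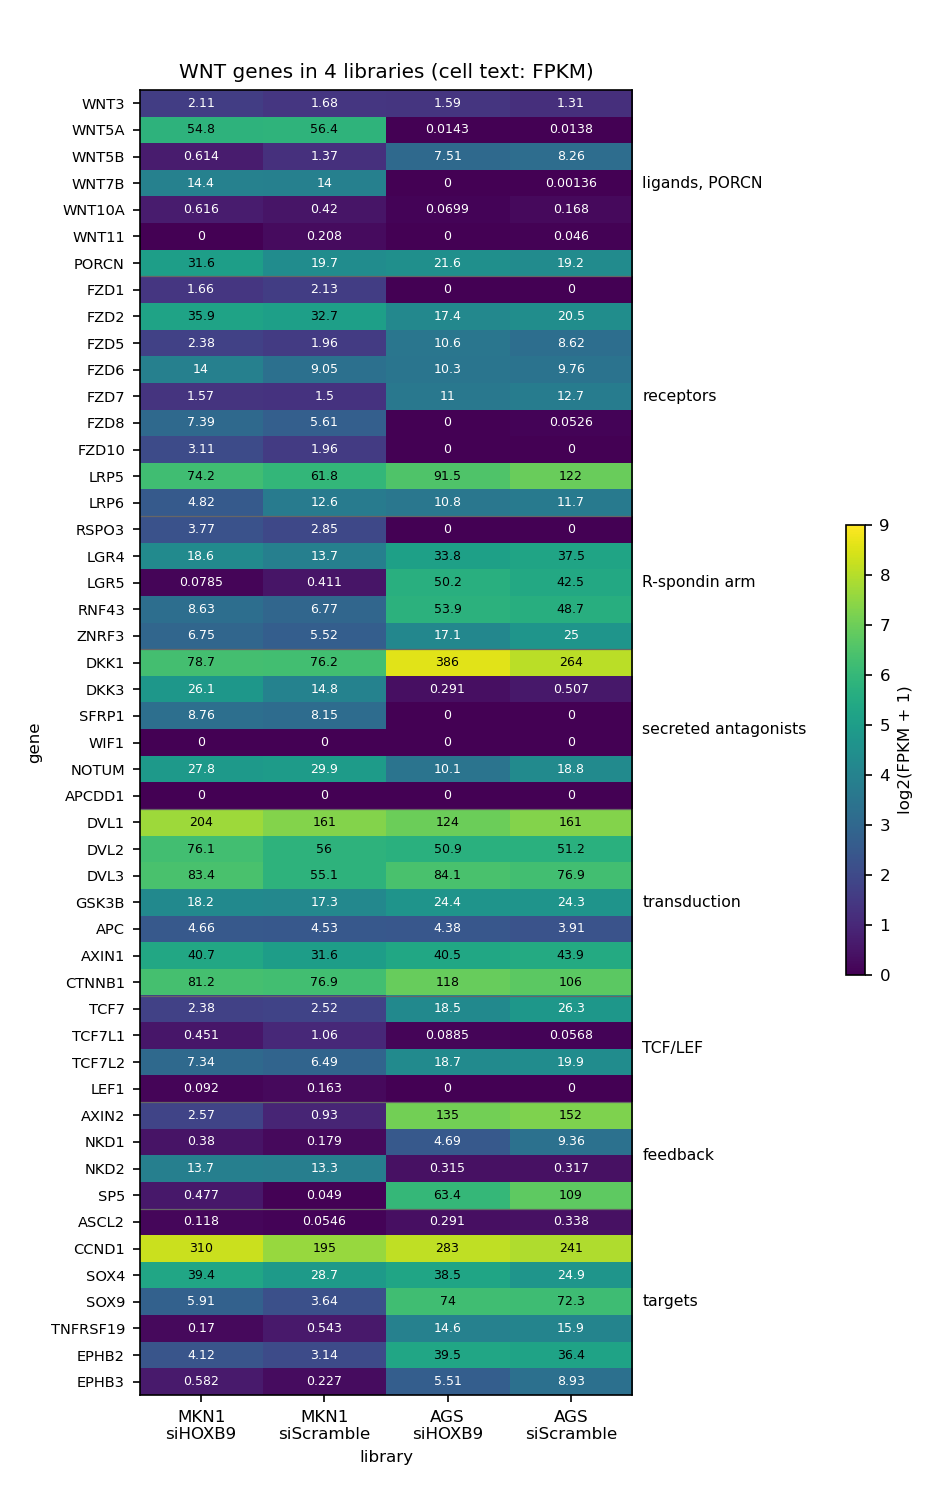
Level of each of the 49 WNT genes (rows, grouped by role) in the 4 libraries (columns); colour gives log2(FPKM + 1) and the text in each cell gives FPKM. AXIN2 is at 2.57 and 0.930 FPKM in the MKN1 libraries and at 135 and 152 FPKM in the AGS libraries, while WNT5A is at 54.8 and 56.4 FPKM in MKN1 and under 0.1 FPKM in AGS.

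The first comparison concerns the level of the pathway in the lines, MKN1 over AGS. Genes of the ligands, receptors and output were called between the lines, and none of the intracellular core was. MKN1 held WNT5A, WNT7B, FZD8, DKK3, SFRP1 and NKD2, which were at most 0.507 FPKM in AGS. AGS held AXIN2, SP5, LGR5, SOX9, EPHB2 and TCF7 at levels many times those of MKN1. A gene was called between the lines when limma, fitted to log2(FPKM + 1) of all 4 libraries with terms for line and siRNA, gave a Benjamini-Hochberg adjusted p under 0.05 over 13758 genes and a difference of at least 1 on the log2 scale. Of the 42 WNT genes tested, 10 were called higher in MKN1, beside 16.2% of all genes tested, and 17 were called lower in MKN1, beside 20.9% of all genes tested. The libraries of a line differ in siRNA and are not labelled as separate cultures, so these p-values measure only the spread between these libraries.

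Among ligands, MKN1 and AGS expressed different genes. WNT5A, a ligand of beta-catenin-independent signalling, was at 54.8 FPKM in MKN1 siHOXB9 and 56.4 FPKM in MKN1 siScramble, against 0.0143 and 0.0138 FPKM in AGS siHOXB9 and siScramble. The MKN1 libraries lay far above the AGS libraries without overlap (log2 difference 5.80, SE 0.21, limma adjusted p = 1.59e-06). WNT7B, a ligand of canonical signalling in several epithelia, was at 14.4 and 14.0 FPKM in MKN1 siHOXB9 and siScramble, and at 0 and 0.00136 FPKM in AGS siHOXB9 and siScramble (log2 difference 3.92, SE 0.21). WNT5B, the paralog of WNT5A, went the other way, with 0.614 and 1.37 FPKM in MKN1 siHOXB9 and siScramble, against 7.51 and 8.26 FPKM in AGS siHOXB9 and siScramble (log2 difference -2.18, SE 0.23, limma adjusted p = 1.89e-04). WNT3 was low in both lines, from 1.31 to 2.11 FPKM, and was not called. WNT10A and WNT11 stayed under 1 FPKM in every library. Over all 19 human WNT genes, the summed level was 112 FPKM in MKN1 siHOXB9, 114 in MKN1 siScramble, 15.2 in AGS siHOXB9 and 16.6 in AGS siScramble. WNT5A made up 49.0% and 49.3% of that sum in MKN1 siHOXB9 and siScramble, and WNT5B 49.3% and 49.8% in AGS siHOXB9 and siScramble: each was the first ligand of its line. WNT6, which is not among the 49, was the second ligand of all 4 libraries, with 24.2% to 28.4% of the sum. This sum over the ligand family was chosen after the values were seen. PORCN, the acyltransferase that lipidates WNT proteins for secretion, was at 31.6 and 19.7 FPKM in MKN1 siHOXB9 and siScramble, and at 21.6 and 19.2 FPKM in AGS siHOXB9 and siScramble, and was not called between the lines.

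**Figure D2:**
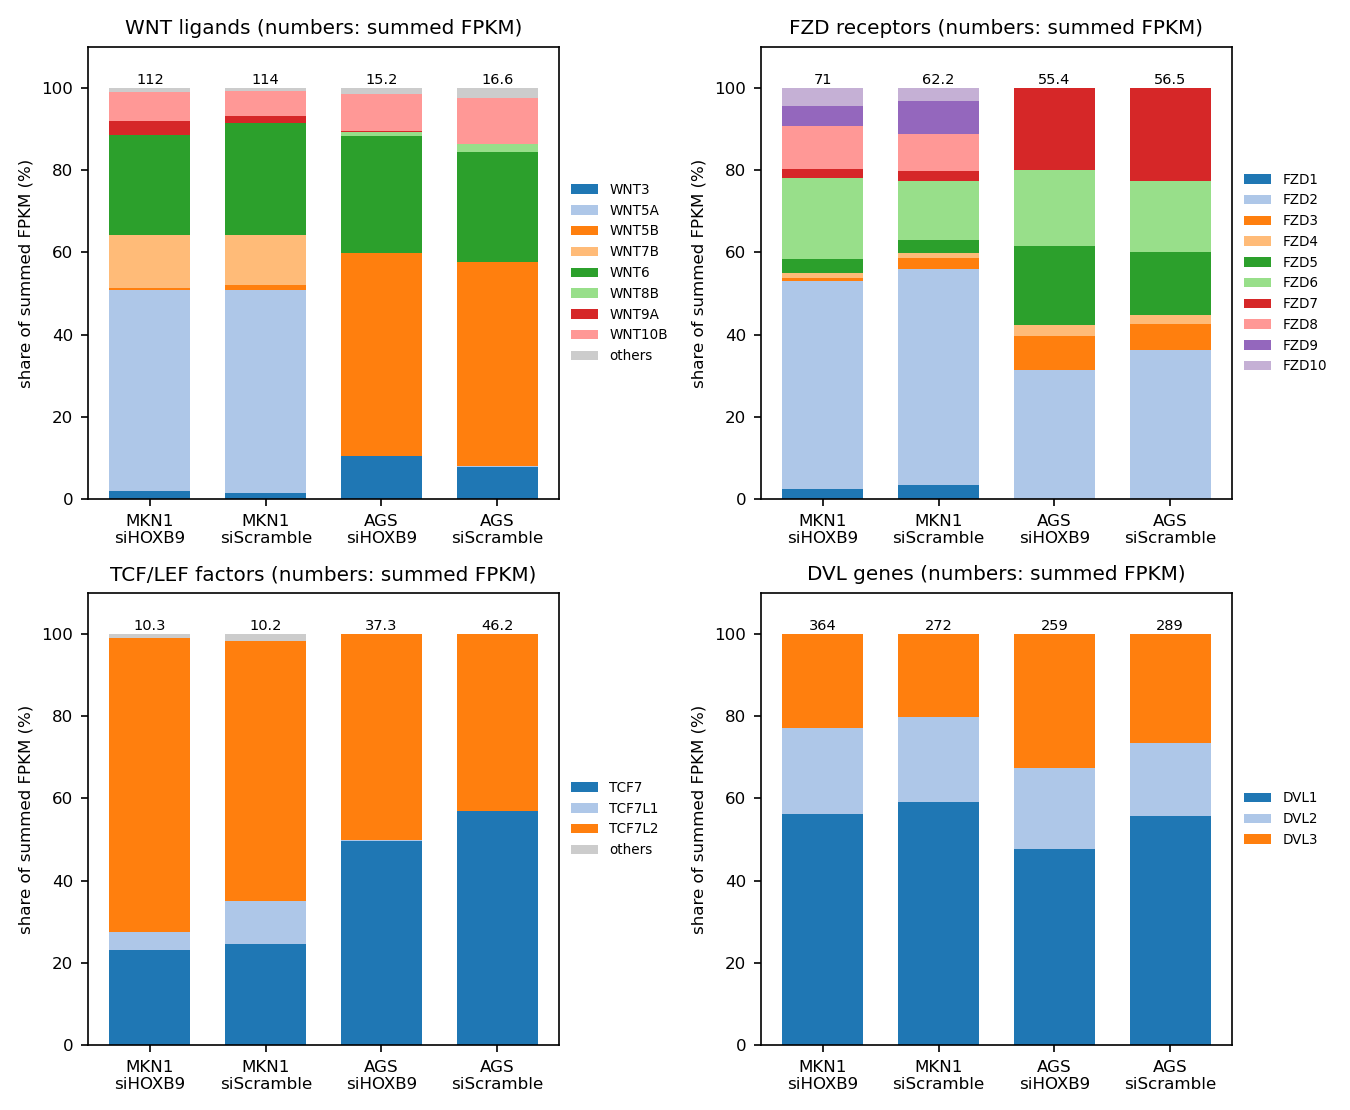
Share of each gene in the summed FPKM of its family (y axis, percent) in the 4 libraries (x axis), with the summed FPKM above each bar; genes under 2% in every library are grouped as others. WNT5A fills 49.0% and 49.3% of the ligand sum in MKN1 and WNT5B 49.3% and 49.8% in AGS, and TCF7 takes 23.2% and 24.6% of the TCF/LEF sum in MKN1 against 49.6% and 56.9% in AGS.

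The Frizzled receptors had a similar summed level and a different make-up. The 10 FZD genes summed to 71.0 FPKM in MKN1 siHOXB9, 62.2 in MKN1 siScramble, 55.4 in AGS siHOXB9 and 56.5 in AGS siScramble. FZD2 was the most abundant in every library, with 35.9 and 32.7 FPKM in MKN1 siHOXB9 and siScramble and 17.4 and 20.5 FPKM in AGS siHOXB9 and siScramble. Its log2 difference of 0.83 (SE 0.19, limma adjusted p = 0.00795) was under the size rule, and was 1.01 when each library was centred on its median gene. FZD7 was lower in MKN1, with 1.57 and 1.499 FPKM in siHOXB9 and siScramble, against 11.03 and 12.7 FPKM in AGS siHOXB9 and siScramble (log2 difference -2.34, SE 0.22). FZD5 was likewise lower in MKN1, with 2.38 and 1.96 FPKM against 10.6 and 8.62 FPKM in AGS siHOXB9 and siScramble (log2 difference -1.74, SE 0.21). FZD8 was at 7.39 and 5.61 FPKM in MKN1 siHOXB9 and siScramble, and at 0 and 0.0526 FPKM in AGS siHOXB9 and siScramble. FZD1 and FZD10 were between 1.66 and 3.11 FPKM in MKN1 and listed at 0 in both AGS libraries. FZD6 differed little between the lines, with 14.0 and 9.05 FPKM in MKN1 siHOXB9 and siScramble, and 10.3 and 9.76 FPKM in AGS siHOXB9 and siScramble. Of the coreceptors, LRP5 was at 74.2 and 61.8 FPKM in MKN1 siHOXB9 and siScramble, and at 91.5 and 122 FPKM in AGS siHOXB9 and siScramble. Its log2 difference of -0.63 (SE 0.21) was under the size rule. LRP6 was at 4.82 and 12.6 FPKM in MKN1 siHOXB9 and siScramble, and at 10.8 and 11.7 FPKM in AGS siHOXB9 and siScramble, and was not called between the lines.

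R-spondins are secreted proteins that bind LGR receptors and remove the ubiquitin ligases RNF43 and ZNRF3, which otherwise clear Frizzled from the membrane. All 5 genes of this arm were called, with the receptors and ligases lower in MKN1 and the ligand RSPO3 higher. Of all genes tested, 20.9% were called lower and 16.2% higher. LGR5, a stem cell marker and target gene, was at 0.0785 and 0.411 FPKM in MKN1 siHOXB9 and siScramble, against 50.2 and 42.5 FPKM in AGS siHOXB9 and siScramble (log2 difference -5.26, SE 0.24, limma adjusted p = 3.65e-06). LGR4, its widely expressed relative, was at 18.6 and 13.7 FPKM in MKN1 siHOXB9 and siScramble, against 33.8 and 37.5 FPKM in AGS siHOXB9 and siScramble. Its log2 difference of -1.11 (SE 0.21) was -0.92, under the size rule, after each library was centred on its median gene. RNF43 was at 8.63 and 6.77 FPKM in MKN1 siHOXB9 and siScramble, against 53.9 and 48.7 FPKM in AGS siHOXB9 and siScramble (log2 difference -2.59, SE 0.19). ZNRF3 was at 6.75 and 5.52 FPKM in MKN1 siHOXB9 and siScramble, against 17.1 and 25.0 FPKM in AGS siHOXB9 and siScramble (log2 difference -1.61, SE 0.24). No library of MKN1 reached a library of AGS for these 4 genes. The same held for genes that were not called, such as GSK3B and LRP5, and the share over all genes was not computed. RSPO3 was at 3.77 and 2.85 FPKM in MKN1 siHOXB9 and siScramble and listed at 0 in both AGS libraries.

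The secreted antagonists split between the lines. DKK1, which blocks LRP5 and LRP6, was the most abundant antagonist of both, at 78.7 and 76.2 FPKM in MKN1 siHOXB9 and siScramble, against 386 and 264 FPKM in AGS siHOXB9 and siScramble (log2 difference -2.03, SE 0.19, limma adjusted p = 1.01e-04). DKK3, a divergent member of the Dickkopf family, was higher in MKN1, at 26.1 and 14.8 FPKM in siHOXB9 and siScramble, against 0.291 and 0.507 FPKM in AGS siHOXB9 and siScramble (log2 difference 3.89, SE 0.28). SFRP1, a secreted protein that binds WNT ligands, was at 8.76 and 8.15 FPKM in MKN1 siHOXB9 and siScramble and listed at 0 in both AGS libraries. NOTUM, a secreted enzyme that strips the lipid from WNT proteins, was at 27.8 and 29.9 FPKM in MKN1 siHOXB9 and siScramble, against 10.1 and 18.8 FPKM in AGS siHOXB9 and siScramble. It was higher in MKN1, by a log2 difference of 1.01 (SE 0.23, limma adjusted p = 0.00736) that lay just past the size rule.

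None of the 7 genes of the intracellular core was called between the lines. Beta-catenin (CTNNB1) was at 81.2 and 76.9 FPKM in MKN1 siHOXB9 and siScramble, and at 118 and 106 FPKM in AGS siHOXB9 and siScramble, a log2 difference of -0.50 (SE 0.16, limma adjusted p = 0.0340) under the size rule. APC, the scaffold of the destruction complex, was between 3.91 and 4.66 FPKM in all 4 libraries, and AXIN1, its limiting scaffold, between 31.6 and 43.9 FPKM. GSK3B, the kinase of the complex, was at 18.2 and 17.3 FPKM in MKN1 siHOXB9 and siScramble, and at 24.4 and 24.3 FPKM in AGS siHOXB9 and siScramble. The Dishevelled genes, which relay the signal from Frizzled, summed to 364 FPKM in MKN1 siHOXB9, 272.5 in MKN1 siScramble, 259 in AGS siHOXB9 and 289 in AGS siScramble. DVL1 made up 47.8% to 59.2% of that sum. A call missed at this number of libraries does not show that the levels are equal, and the largest of the 7 differences was the -0.50 of CTNNB1.

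**Figure D3:**
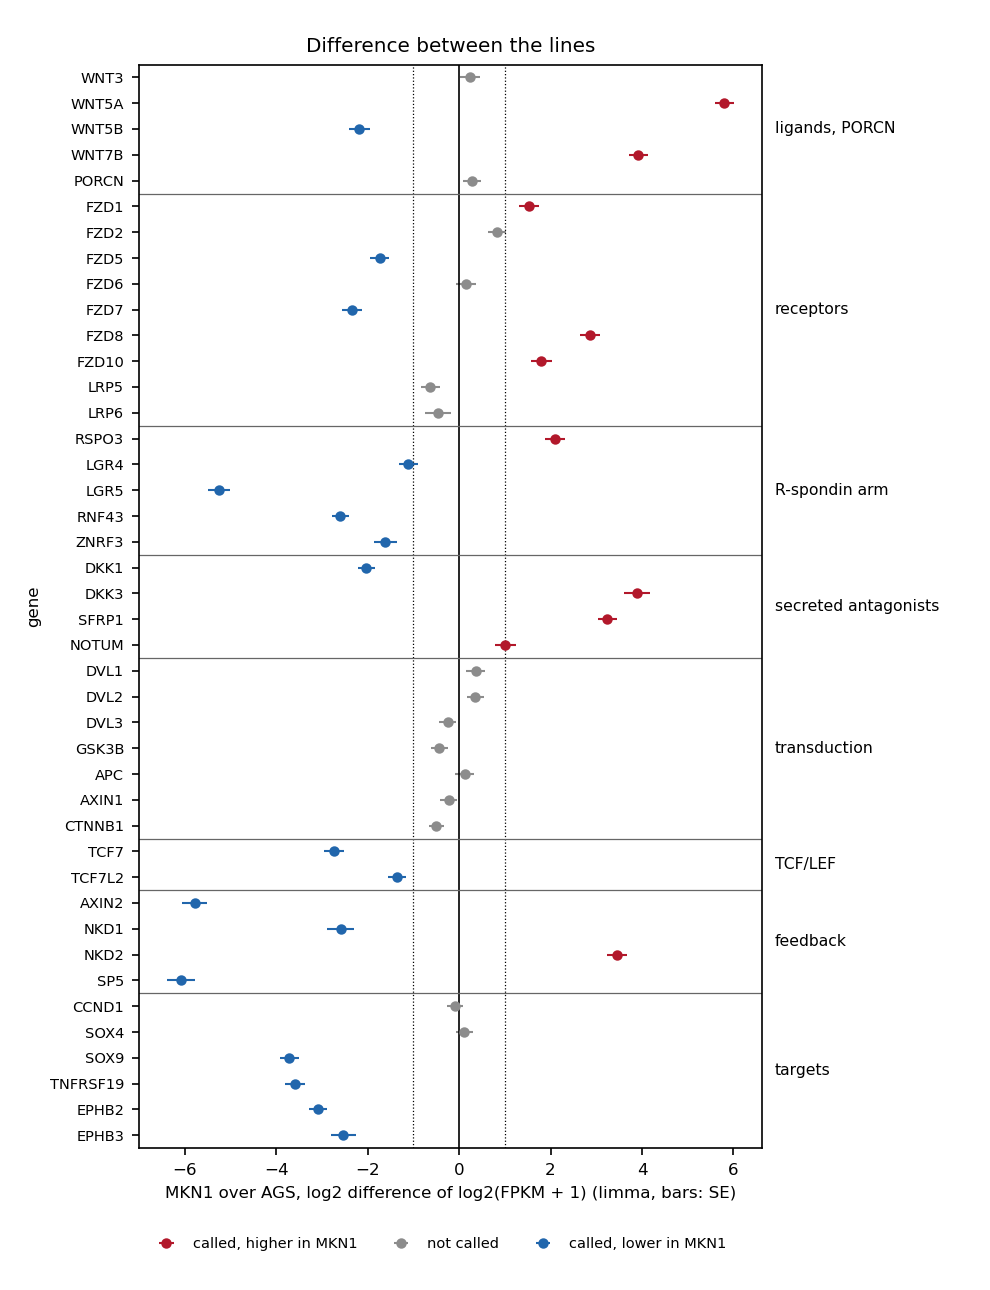
Log2 difference of log2(FPKM + 1) between MKN1 and AGS for the 42 WNT genes tested (x axis, points with bars for the SE of the limma fit), by gene and role (y axis); dotted lines mark the size rule. The 7 transduction genes sit between -0.50 and 0.36 and are not called, while SP5, AXIN2 and LGR5 lie below -5 and WNT5A above 5; genes listed at 0 in AGS have a position set by the added 1 FPKM.

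Of the TCF/LEF factors, through which beta-catenin acts on genes, TCF7 and TCF7L2 carried nearly all of the family in AGS. TCF7, itself a target gene, was at 2.38 and 2.52 FPKM in MKN1 siHOXB9 and siScramble, against 18.5 and 26.3 FPKM in AGS siHOXB9 and siScramble (log2 difference -2.74, SE 0.22, limma adjusted p = 4.99e-05). TCF7L2 was at 7.34 and 6.49 FPKM in MKN1 siHOXB9 and siScramble, against 18.7 and 19.9 FPKM in AGS siHOXB9 and siScramble (log2 difference -1.36, SE 0.20). Both were lower in MKN1, TCF7 by more, so that TCF7 held 23.2% and 24.6% of the family's FPKM in MKN1 siHOXB9 and siScramble, against 49.6% and 56.9% in AGS siHOXB9 and siScramble. TCF7L1, mostly a repressor, reached 1.06 FPKM in MKN1 siScramble and was under 0.5 FPKM in the other libraries, and LEF1 stayed under 0.2 FPKM throughout.

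Of the 42 WNT genes tested, the feedback gene SP5 had the widest gap, followed by WNT5A (log2 difference 5.80) and the feedback gene AXIN2. AXIN2, an axin induced by the pathway and its most used readout, was at 2.57 and 0.930 FPKM in MKN1 siHOXB9 and siScramble, against 135 and 152 FPKM in AGS siHOXB9 and siScramble (log2 difference -5.78, SE 0.27, limma adjusted p = 4.01e-06). AXIN2 (ENSG00000168646.12) occupies positions 65528563 to 65561647 of chromosome 17 (GRCh38, reverse strand). SP5, a zinc finger repressor that TCF factors and beta-catenin induce directly, was at 0.477 and 0.0490 FPKM in MKN1 siHOXB9 and siScramble, against 63.4 and 109 FPKM in AGS siHOXB9 and siScramble (log2 difference -6.08, SE 0.31, limma adjusted p = 5.70e-06). Its MKN1 values corresponded to an estimated 9.0 fragments with siHOXB9 and 1.0 with siScramble, so the MKN1 level of SP5 rests on very few fragments. NKD1, a Dishevelled-binding inhibitor, was at 0.380 and 0.179 FPKM in MKN1 siHOXB9 and siScramble, against 4.69 and 9.36 FPKM in AGS siHOXB9 and siScramble (log2 difference -2.59, SE 0.29). Its paralog NKD2 had the opposite pattern, at 13.7 and 13.3 FPKM in MKN1 siHOXB9 and siScramble, against 0.315 and 0.317 FPKM in AGS siHOXB9 and siScramble (log2 difference 3.46, SE 0.21). As with WNT5A and WNT5B, one paralog was high in MKN1 and the other in AGS.

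The promoters of the genes with the largest called differences between the lines, among those with an entry in the RefSeq promoter table (GRCh38.p14), are shown because they allow the binding word of TCF/LEF factors to be looked for beside the levels. Each is the 250 bases before the start that the RefSeq table gives, 5′ to 3′ on the gene's strand, with CTTTGAA or CTTTGAT (TCF/LEF) and TTTACGA or TTTATGA (HOX9 group), on either strand, in capitals. SP5 lies at chr2:170715087-170715336 on the forward strand, WNT5A at chr3:55487307-55487556 on the reverse strand, TNFRSF19 at chr13:23570162-23570411 on the forward strand and NKD2 at chr5:1008552-1008801 on the forward strand. The WNT5A window lies inside the gene as GENCODE draws it (55465715 to 55490539), and the TNFRSF19 window runs past the start GENCODE gives (23570370). SP5 and TNFRSF19 were lower in MKN1, and WNT5A and NKD2 higher.
SP5: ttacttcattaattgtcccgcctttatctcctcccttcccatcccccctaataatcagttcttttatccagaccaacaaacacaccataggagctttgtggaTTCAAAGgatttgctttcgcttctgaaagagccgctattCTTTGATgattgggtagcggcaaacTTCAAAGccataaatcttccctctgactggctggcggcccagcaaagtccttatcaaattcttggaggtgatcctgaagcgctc
WNT5A: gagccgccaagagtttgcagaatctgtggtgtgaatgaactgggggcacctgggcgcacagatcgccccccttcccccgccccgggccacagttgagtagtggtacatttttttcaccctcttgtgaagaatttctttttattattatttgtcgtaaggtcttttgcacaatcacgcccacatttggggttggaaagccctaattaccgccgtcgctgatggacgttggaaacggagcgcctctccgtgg
TNFRSF19: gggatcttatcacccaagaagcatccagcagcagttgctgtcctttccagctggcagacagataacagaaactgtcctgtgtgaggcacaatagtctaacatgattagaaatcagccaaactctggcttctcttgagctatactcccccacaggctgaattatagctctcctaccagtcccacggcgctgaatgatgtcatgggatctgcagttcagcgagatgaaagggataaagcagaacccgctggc
NKD2: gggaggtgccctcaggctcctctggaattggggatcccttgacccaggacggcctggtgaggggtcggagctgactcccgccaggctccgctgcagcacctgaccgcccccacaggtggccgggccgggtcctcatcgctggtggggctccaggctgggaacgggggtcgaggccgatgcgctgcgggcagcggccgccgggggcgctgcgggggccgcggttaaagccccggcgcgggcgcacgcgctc

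The SP5 window held 3 TCF/LEF words, CTTTGAT on the gene's strand starting 109 bases before the start and CTTTGAA on the other strand at 148 and 84 bases before it. The WNT5A, TNFRSF19 and NKD2 windows held none of the 4 words. Of 32 WNT genes with a promoter in the table, 2 held a TCF/LEF word, SP5 and DKK1 (CTTTGAA, 95 bases before the start), which is 6.25%, beside 6.03% of 27305 promoters of the same length. A HOX9 word was in 0 of the 32 and in 3.81% of all promoters. These are matches of letters in a short window, and AXIN2, LGR5 and LRP6 were not among the 32.

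Of the 7 target genes among the 49, 4 were called lower in MKN1, 2 were not called and ASCL2 was not tested. Of all genes tested, 20.9% were called lower in MKN1. SOX9, a transcription factor of progenitor cells, was at 5.91 and 3.64 FPKM in MKN1 siHOXB9 and siScramble, against 74.0 and 72.3 FPKM in AGS siHOXB9 and siScramble (log2 difference -3.71, SE 0.21, limma adjusted p = 9.45e-06). The ephrin receptor gene EPHB2 was at 4.12 and 3.14 FPKM in MKN1 siHOXB9 and siScramble, against 39.5 and 36.4 FPKM in AGS siHOXB9 and siScramble (log2 difference -3.08, SE 0.20), and its relative EPHB3 was under 1 FPKM in MKN1 and at 5.51 and 8.93 FPKM in AGS siHOXB9 and siScramble. TNFRSF19, a receptor of the TNF family also named TROY, was at 0.170 and 0.543 FPKM in MKN1 siHOXB9 and siScramble, against 14.6 and 15.9 FPKM in AGS siHOXB9 and siScramble. CCND1, cyclin D1, did not follow them: it was at 309.8 and 195 FPKM in MKN1 siHOXB9 and siScramble, and at 283 and 241 FPKM in AGS siHOXB9 and siScramble (log2 difference -0.09, SE 0.18, and 0.10 after centring). SOX4, a progenitor transcription factor, was at 39.4 and 28.7 FPKM in MKN1 siHOXB9 and siScramble, and at 38.5 and 24.8 FPKM in AGS siHOXB9 and siScramble. The libraries of the lines overlapped for both CCND1 and SOX4. ASCL2, a stem cell regulator of the intestine, stayed under 0.4 FPKM in every library.

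Of the 27 WNT genes called between the lines, 16 were under 1 FPKM in a library and so entered the test through the line that expressed them. Of the 26 at 1 FPKM or more in all 4 libraries, 10 were called lower in MKN1 and 1, NOTUM, higher. The shares called among all genes at that level were not computed, so this split has no background beside it. Without the filter on low values 7 of the 27 missed the threshold, with limma adjusted p from 0.0524 to 0.128: EPHB3, FZD10, LGR4, NKD1, NOTUM, WNT5B and ZNRF3. The calls that remained passed narrowly, with limma adjusted p from 0.0434 to 0.0486. The median log2 difference was -0.34 over the 42 WNT genes tested and -0.10 over all genes tested; centring each library on its median gene moved the median over all genes to 0.09 and the calls over all genes from 2229 higher and 2880 lower in MKN1 (43.6% higher) to 2671 and 2332 (53.4% higher).

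The second comparison set siHOXB9 against siScramble within AGS. No WNT gene reached a 2-fold difference of FPKM + 1 there, and the 3 that came nearest, NKD1, NOTUM and SP5, are inhibitors of the pathway that it induces itself. All 3 had lower values in siHOXB9. NKD1 was at 4.69 FPKM in siHOXB9 and 9.36 FPKM in siScramble, a change of -0.86 in log2(FPKM + 1). NOTUM was at 10.1 FPKM in siHOXB9 and 18.8 FPKM in siScramble (log2 change -0.83), and SP5 at 63.4 FPKM in siHOXB9 and 109 FPKM in siScramble (log2 change -0.77). SP5 was estimated at 1403 fragments in siHOXB9 and 2515 in siScramble, so its change does not rest on few fragments. EPHB3 was at 5.51 FPKM in siHOXB9 and 8.93 FPKM in siScramble (log2 change -0.61). ZNRF3 and TCF7 had log2 changes of -0.52 and -0.49. Other feedback and target genes of the same line lay nearer to 0: AXIN2 had a log2 change of -0.17, LGR5 of 0.24, RNF43 of 0.14, EPHB2 of 0.11 and SOX9 of 0.03. The 2 largest changes upward were those of SOX4, with 38.5 FPKM in siHOXB9 and 24.8 FPKM in siScramble (log2 change 0.61), and DKK1, with 386 FPKM in siHOXB9 and 264 FPKM in siScramble (log2 change 0.55).

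A change was counted when it was at least 1 in size in log2(FPKM + 1), among genes that reached 1 FPKM in siHOXB9 or in siScramble of that line. In AGS 0 of 33 measured WNT genes were higher, beside 1.68% of 13252 genes, and 0 were lower, beside 2.21%. Their median log2 change was -0.08, and -0.06 over all genes measured, with 15 of the 33 above 0 and 43.0% of all genes above 0. With each library rescaled to a common total the median of the WNT genes was 0.009. All 15 listed genes of the G2 and M phases of the cell cycle had lower values in AGS siHOXB9, with a median log2 change of -0.91 and a sum of 617 FPKM in siHOXB9 and 1230 FPKM in siScramble. In MKN1 13 of the 15 did, with a median of -0.23 and a sum of 1296 FPKM in siHOXB9 and 1528 FPKM in siScramble. Their part in the WNT values was not tested.

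**Figure D4:**
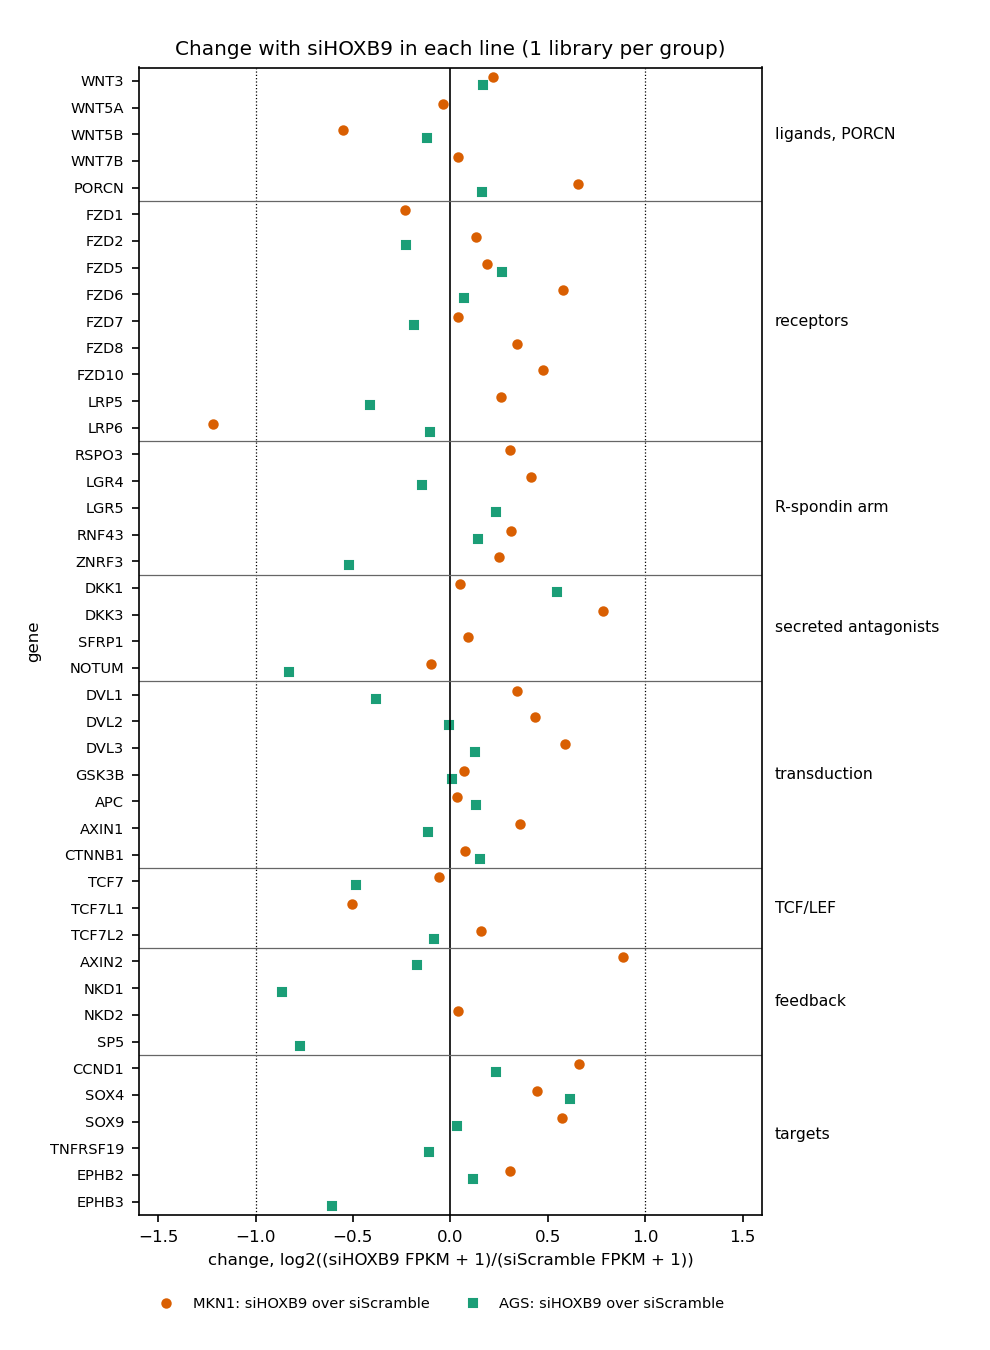
Log2((siHOXB9 FPKM + 1)/(siScramble FPKM + 1)) of each measured WNT gene (y axis, by role) in MKN1 (circles) and AGS (squares), 1 library per group; dotted lines mark a 2-fold difference. LRP6 in MKN1 (-1.22) is the one value past the lines, and NKD1, NOTUM and SP5 in AGS (-0.86, -0.83 and -0.77) and AXIN2 in MKN1 (0.89) come next.

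In MKN1 the coreceptor LRP6 was the one WNT gene past a 2-fold difference of FPKM + 1. It was at 4.82 FPKM in siHOXB9 and 12.6 FPKM in siScramble, which is 38.4% of the control and a log2 change of -1.22. By FPKM alone, with no pseudocount, AXIN2 (276% of the control), WNT5B (44.9%) and TCF7L1 (42.6%) were past 2-fold too, all 3 with at most 2.57 FPKM in MKN1. In AGS it was at 10.8 FPKM in siHOXB9 and 11.7 FPKM in siScramble, 92.3% of the control (log2 change -0.11). The MKN1 siHOXB9 library thus stood apart from the other 3 libraries, which lay between 10.8 and 12.6 FPKM. LRP6 (ENSG00000070018.8) occupies positions 12116025 to 12267012 of chromosome 12 (GRCh38, reverse strand), has 7 annotated transcripts and shares no exon with another annotated gene. By its longest coding transcript of 10020 bases the MKN1 values correspond to an estimated 501 fragments in siHOXB9 and 1411 in siScramble. Its partner LRP5 had a log2 change of 0.26 in MKN1.

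Most other WNT genes of MKN1 had somewhat higher values in siHOXB9. AXIN2 was at 2.57 FPKM in siHOXB9 and 0.930 FPKM in siScramble (log2 change 0.89), an estimated 109 and 42.8 fragments, and with a pseudocount of 0.1 FPKM its change was 1.37, past the size rule. DKK3 was at 26.1 FPKM in siHOXB9 and 14.8 FPKM in siScramble (log2 change 0.78). CCND1 was at 309.8 FPKM in siHOXB9 and 195 FPKM in siScramble, and PORCN at 31.6 FPKM in siHOXB9 and 19.7 FPKM in siScramble, both with a log2 change of 0.66. DVL3, FZD6 and SOX9 had log2 changes of 0.59, 0.58 and 0.57. All 7 genes of the intracellular core were above 0 (median 0.34), though GSK3B, APC and CTNNB1 turned below 0 when changes were centred on the median gene. WNT5A, the main ligand of this line, was at 54.8 FPKM in siHOXB9 and 56.4 FPKM in siScramble (log2 change -0.04). By the size rule 0 of 38 measured WNT genes were higher in MKN1, beside 2.1% of 13122 genes, and 1 was lower, beside 1.94%. Above 0 were 31 of the 38, beside 63.1% of all genes measured. After centring on the median gene 23 of the 38 were above 0, beside 50% of all genes by construction, and WNT7B, FZD7, DKK1, SFRP1 and NKD2 turned along with GSK3B, APC and CTNNB1. The median log2 change was 0.23 for the WNT genes and 0.09 for all genes, and 0.14 for the WNT genes after centring. With a pseudocount of 0.1 FPKM, WNT5B and TCF7L1, both near 1 FPKM, also passed as lower.

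The third comparison asked which WNT genes changed with siHOXB9 over both lines. SOX4 and CCND1 had higher values in siHOXB9 in both. The limma estimate was 0.53 (SE 0.18, adjusted p = 0.626) for SOX4, with log2 changes of 0.44 in MKN1 and 0.61 in AGS, and 0.45 (SE 0.18, adjusted p = 0.691) for CCND1, with 0.66 in MKN1 and 0.23 in AGS. Neither passed the threshold. LRP6 followed at -0.66 (SE 0.29, limma adjusted p = 0.705), with log2 changes of -1.22 in MKN1 and -0.11 in AGS. In limma 0 of 42 WNT genes had an adjusted p under 0.05, beside 0.00727% of all genes tested (1 gene), and 2 of the 42, SOX4 and CCND1, had an unadjusted p under 0.05, as did 980 of the 13758 genes. With 1 residual degree of freedom, a gene's own error in this fit comes only from how far the lines differ in their change. Limma moderates that error toward the error of genes of like intensity, so the SE also draws on all genes tested.

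Of the 28 WNT genes measured in both lines, 18 had changes of the same sign and 10 of opposite sign, 35.7% beside 46.9% of all genes measured in both. The median change of all genes was itself 0.09 in MKN1 and -0.06 in AGS. As deposited, all 10 were above 0 in MKN1 and below 0 in AGS: FZD2, FZD7, LRP5, LGR4, ZNRF3, DVL1, DVL2, AXIN1, TCF7L2 and AXIN2. Of all genes measured in both, 34.9% had this direction, near the 35.7% of the WNT genes, and 11.9% had the other. Opposite directions with changes at least 1 apart on the log2 scale were found for 1 of the 28, AXIN2 (0.89 in MKN1 and -0.17 in AGS), beside 4.74% of all genes measured in both. Under each other scaling the AXIN2 changes lay less than 1 apart. The split depends on the scaling. After centring on the median gene, 8 were above 0 in MKN1 and below 0 in AGS, beside 22.3% of all genes. The other way were 4 (DKK1, GSK3B, APC and CTNNB1), beside 20.4% of all genes. Of the 10 named, FZD7 in MKN1 and DVL2 and TCF7L2 in AGS turned under at least 1 other scaling.

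Beyond the 49, 78 further WNT pathway genes were listed, of which 77 had a row. Between the lines 48 could be tested, and 8 were called higher in MKN1 (16.2% of all genes were), 16 were called lower in MKN1 (20.9% of all genes were) and 24 were not called. The largest differences among those with at least 5 FPKM in a library were those of TBX3, a T-box target gene, at 22.6 and 18.1 FPKM in MKN1 siHOXB9 and siScramble, against 0.0405 and 0.0195 FPKM in AGS siHOXB9 and siScramble (log2 difference 4.37, SE 0.22). ID2, an inhibitor of bHLH factors and a target gene, was at 6.67 and 10.6 FPKM in MKN1 siHOXB9 and siScramble, against 112 and 114 FPKM in AGS siHOXB9 and siScramble (log2 difference -3.60, SE 0.21). ROR2, a receptor of WNT5A, was at 10.98 and 9.16 FPKM in MKN1 siHOXB9 and siScramble and listed at 0 in both AGS libraries. CD44, a cell surface glycoprotein and target gene chosen for mention after its values were seen, was also called higher in MKN1, with 242 and 244 FPKM in MKN1 siHOXB9 and siScramble, against 19.2 and 27.8 FPKM in AGS siHOXB9 and siScramble (log2 difference 3.34, SE 0.19). TBX3 and CD44 were the only 2 called higher in MKN1 among the 11 further target genes tested. Of the rest, 6 were called lower, ID2 among them, and 3 were not called.

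With siHOXB9, 1 of 43 further genes measured in AGS passed the size rule as higher, beside 1.68% of all genes, and 0 as lower, beside 2.21%. It was BTRC, which encodes the ubiquitin ligase subunit that recognises beta-catenin, at 13.6 FPKM in siHOXB9 and 5.19 FPKM in siScramble (log2 change 1.23), with 8.58 FPKM in siHOXB9 and 7.30 FPKM in siScramble in MKN1 (log2 change 0.21). ZNF703 and BCL9, a beta-catenin coactivator, had log2 changes of -0.57 each in AGS. In MKN1 0 of 44 passed, beside 2.1% of all genes higher and 1.94% lower. CHD8, a chromatin remodeller that binds beta-catenin, came nearest at 12.4 FPKM in siHOXB9 and 5.71 FPKM in siScramble (log2 change 0.998), with 19.96 FPKM in siHOXB9 and 14.8 FPKM in siScramble in AGS (log2 change 0.41). TLE4, a corepressor of TCF factors, and ID2 had log2 changes of 0.70 and -0.59 in MKN1. Over both lines limma called 0 of the 48, and BTRC (adjusted p = 0.682) and CHD8 (adjusted p = 0.616) were the 2 with an unadjusted p under 0.05. Of all 13758 genes tested, 980 had an unadjusted p under 0.05.

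Exons overlap another annotated gene in 16 of the 49, among them RNF43 (with SUPT4H1), TCF7 (with SKP1 on the opposite strand), CCND1 (with LTO1 on the opposite strand), AXIN2, LGR5, DKK1 and NKD1. The labels describe no step that keeps strand, so their FPKM may hold fragments of the neighbour.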

How the data were processed

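RNA of 4 libraries, 1 per cell line and siRNA, was prepared with poly-T beads and random primers, per the labels' protocols. The authors deposited 1 table of FPKM values by gene symbol. Per the submitters' processing notes, the genome was human GRCh38, also named hg38. The aligner, FPKM tool and annotation were not given in the sources used here. Gene IDs and positions come from GENCODE, matched by symbol. Columns summed to 777152 to 831098 FPKM, so they were not scaled to a common total.

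Depth was estimated from genes with 1 transcript in GENCODE release 29 (GRCh38), where FPKM times length, shortened by 260 bases, falls on whole fragments; 53.9% to 56.1% of the low values lay within 0.05 of a whole number. Fragment numbers are estimates from the longest coding transcript.

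Within a line, changes were differences of log2(FPKM + 1) with no test, which understates low genes. Over both lines limma 3.58.1 (R 4.3.3) was fitted to genes that reached 1 FPKM in 2 or more libraries, with line and siRNA as terms and an intensity trend; its two-sided p-values were adjusted over all 13758 genes by Benjamini and Hochberg's method. The scripts were tested on simulated data. The 49 genes and the lists were chosen with earlier results of these data known. Named beyond the 49 were HOXB9 and, by rule, further pathway genes at 5 FPKM or more. These were the 3 with the largest change in each line and the 3 with the largest line difference. Outside this rule, WNT6 was named with the ligand sum, CD44 by choice, and GSK3A, RNF146 and CTNNBIP1 as called transducers. All of these were named after the values were seen. Promoters were shown for at most 4 genes, by the size of their difference. CEMIP was not analysed here. Alternatives covered the pseudocount, filter, scaling, size rule, variance settings and the line term; restricting to genes that share no exon was chosen after seeing the data.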

Additional observations from a re-analysis of the deposited data

Results flagged for a closer look

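AXIN2 changed in opposite directions in the lines, with changes that lay 1.06 apart on the log2 scale: it was above 0 in MKN1 (log2 change 0.89) and below 0 in AGS (-0.17). It was marked because each line moved its own way, and the difference was not tested, since each line has 1 library per siRNA. With a pseudocount of 0.1 FPKM the changes were 1.37 in MKN1 and -0.17 in AGS. With libraries rescaled to a common total they were 0.84 in MKN1 and -0.08 in AGS. After centring on the median gene they were 0.79 in MKN1 and -0.11 in AGS, and after quantile normalization 0.89 and -0.08. Under each of these scalings the changes lay less than 1 apart, so AXIN2 would not have been marked. Among all 11547 genes measured in both lines, 547 (4.74%) had changes of opposite sign at least 1 apart, and 1 of the 28 WNT genes did. SP5 and NKD1, lower in AGS siHOXB9, were under 1 FPKM in MKN1 and were not placed in this comparison.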

How the results depend on the processing

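With a size rule of 1.5-fold, 1 of 33 WNT genes was higher in AGS (SOX4; 5.64% of all genes), 4 were lower in AGS (NKD1, NOTUM, SP5 and EPHB3; 8.37% of all genes) and 5 of 38 were higher in MKN1 (AXIN2, DKK3, CCND1, PORCN and DVL3; 7.96% of all genes), where the 2-fold rule counts 0 in each case, because the rule is looser. With a pseudocount of 0.1 FPKM, 1 was higher in MKN1 (AXIN2, beside 4.34% of all genes) and 3 were lower (LRP6, WNT5B and TCF7L1, beside 3.47%), where the 1 FPKM pseudocount counts 0 and 1, since it shrinks low values less. LRP6 passed as lower in MKN1 under every filter, pseudocount and scaling tried and among genes that share no exon. The median change of the WNT genes ranged from -0.113 to 0.009 in AGS and from 0.138 to 0.286 in MKN1. Between the lines, 7 to 11 genes were called higher and 12 to 17 lower in MKN1 over the settings. Without a filter, 7 calls (EPHB3, FZD10, LGR4, NKD1, NOTUM, WNT5B and ZNRF3) were lost, with the same estimates, and the cause was not tested. The calls that remained without a filter had limma adjusted p from 0.0434 to 0.0486. Rescaling to a common total gave a limma adjusted p of 2.29e-04 for WNT5A and 4.80e-04 for SP5. The main fit gave a limma adjusted p of 1.59e-06 and 5.70e-06 for these genes, so the size of p depends on the setting. After centring, LGR4 (-0.92) was lost and FZD2 (1.01) gained. Over both lines 0 WNT genes were called under all 9 alternatives, including the fit with no cell line block. The main fit called 1 of 13758 genes and not HOXB9, so 0 calls do not show that the WNT genes were unchanged. The labels number no replicates, so there is no replicate block; the line term pairs siHOXB9 with siScramble within each line. Depth limits HOXB9, SP5, LGR5, TNFRSF19, EPHB3 and WNT5B in MKN1, where the estimates lie between 1.0 and 32.2 fragments.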
